A study of Mus musculus with 2 samples.

Results

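The 10 microRNA (miRNA) genes Mir200b, Mir200a, Mir429, Mir200c, Mir141, Mir183, Mir96, Mir182, Mir203 and Mir205 were followed in neonatal mouse heart. They were chosen by their GENCODE M21 symbols, with no measured value used in the choice, and are 10 of the 2202 annotated miRNA genes counted. The libraries came from hearts of male B6CASTF1/J mice, the hybrid offspring of C57BL/6J and CAST/EiJ parents, taken 4 days after birth. Small RNA was sequenced in 2 libraries, replicate 1 and replicate 2, which form a single group with no treatment named, so there was no condition to compare. The labels number the animals separately but give both the same donor identifier. If the libraries did not come from separate animals, the spread between them is technical.

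The miR-200 family is a hallmark of epithelial cells. The miR-200 miRNAs repress the transcription factors Zeb1 and Zeb2, which silence E-cadherin, and these factors in turn repress the miR-200 loci, so the pair forms a switch between epithelial and mesenchymal states. The miR-183 cluster is best known from sensory organs such as the retina and the inner ear and is also found in epithelia. In skin, miR-203 promotes the differentiation of keratinocytes and miR-205 marks the basal layer of stratified epithelia. Heart muscle, fibroblasts and endothelium are not the cells these miRNAs are known from.

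A miRNA selects its targets mainly by its seed, bases 2 to 8 from the 5′ end, so the mature sequences show which of the 10 genes can be counted together. The arm usually more abundant in cells is shown for each gene, with the seed in capitals and the sequences credited to RefSeq on build GRCm38.p6, in which all 10 genes were found. The tables hold 1 count per hairpin and do not separate its arms. These 3 sequences carry the seed AAUACUG:
mmu-miR-200b-3p: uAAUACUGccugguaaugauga
mmu-miR-200c-3p: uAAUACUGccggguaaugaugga
mmu-miR-429-3p: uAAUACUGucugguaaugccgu
The next 2 carry the seed AACACUG:
mmu-miR-200a-3p: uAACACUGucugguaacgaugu
mmu-miR-141-3p: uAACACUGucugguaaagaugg
Each of the remaining 5 has a seed of its own:
mmu-miR-183-5p: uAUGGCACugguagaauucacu
mmu-miR-96-5p: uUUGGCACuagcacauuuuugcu
mmu-miR-182-5p: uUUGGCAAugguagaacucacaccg
mmu-miR-203-3p: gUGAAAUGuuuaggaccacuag
mmu-miR-205-5p: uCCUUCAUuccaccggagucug

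Counted from the 5′ end, the miR-200 seeds differ by a single base, U4C from miR-200b-3p to miR-200a-3p. Outside the seed, miR-200b-3p and miR-200c-3p differ by U11G and A22G over their 22 common positions. The miRNAs miR-200a-3p and miR-141-3p differ by C17A and U22G, so their first 16 bases are the same. In the miR-183 cluster the seed changes by A2U from miR-183-5p to miR-96-5p and by C8A from miR-96-5p to miR-182-5p. Of all mature mouse sequences in the RefSeq table, only mmu-miR-1271-5p shares a seed with any of the 10, namely that of miR-96, and its gene Gm24195 had 0 counts in both libraries. No hairpin of the 10 shares a 20-base window with another annotated miRNA hairpin. A full-length read could therefore be assigned to 1 of these hairpins. A read that lies wholly within the first 16 bases of miR-200a-3p or miR-141-3p could not.

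The genes lie at 5 loci of mm10, the assembly of the deposited tables. Mir200b (chromosome 4, 156055681 to 156055750), Mir200a (156054896 to 156054985) and Mir429 (156053905 to 156053987) follow each other in this order of transcription on the minus strand, 695 and 908 bases apart. All 3 lie in introns of Ttll10, a gene of the tubulin ligase-like family, on its strand. They also lie within the noncoding gene Gm13648, where Mir429 overlaps an exon and the other two lie in an intron. Mir200c (chromosome 6, 124718322 to 124718390) lies 336 bases upstream of Mir141 (124717914 to 124717985), also on the minus strand, and both are in an intron of the noncoding gene Gm15884. Mir141 additionally overlaps an exon of Gm29008.

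Mir183 (chromosome 6, 30169668 to 30169737), Mir96 (30169446 to 30169551) and Mir182 (30165918 to 30165992) are intergenic on the minus strand, with gaps of 116 and 3453 bases. Mir203 (chromosome 12, 112130880 to 112130955) is intergenic on the plus strand. Mir205 (chromosome 1, 193507463 to 193507530) lies in an exon of the long noncoding RNA gene 4631405K08Rik on the minus strand.

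Sense counts over all miRNA genes came to 4196577 in replicate 1 and 3801738 in replicate 2. Values are given as CPM, the usual scaling by these totals, in which 1 read is 0.238 and 0.263 CPM. A count of 0 allows up to 0.715 and 0.789 CPM, the level of 3 counts. Intervals are at the 95% level and cover counting error only, because reads of an amplified library are not independent molecules. A ± is the SD over the 2 libraries (n = 2). Levels of different miRNAs are compared per gene without a length correction. These levels are read counts and not molecules, so a ratio between miRNAs of different sequence is a ratio of reads. The 10 annotated mature sequences shown are 22 to 25 bases long, and the lengths of the reads were not examined here. In whole tissue, fewer cells of a type and less RNA per cell cannot be told apart.

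The labelled tissue was borne out by the heart muscle miRNAs of the myosin genes. Mir499 had 5794 CPM in replicate 1 and 4633 CPM in replicate 2, Mir208b had 5169 and 2965 CPM, and Mir208a had 2091 and 1259 CPM. Against these, the 10 genes followed here together had 417 CPM in replicate 1 and 613 CPM in replicate 2. The 3 heart muscle genes thus held 31.3 times the reads of the 10 genes in replicate 1 and 14.5 times in replicate 2. The muscle loci Mir1a-1 (10 and 13 counts) and Mir133a-2 (7 and 5 counts) read low in replicates 1 and 2 and are not among these 3. Their counts leave out multi-mapped reads, whose part in this was not tested. As a share of sense counts the 10 genes held 0.0417% (0.0398 to 0.0437 by the Wilson method) of replicate 1. The share was 0.0613% (0.0588 to 0.0638) for replicate 2, and the mean was 0.0515% ± 0.0138. The sum was 1.47-fold higher in replicate 2 (exact interval 1.38 to 1.56). Mir203 alone had 55.8 CPM in replicate 1 and 221 CPM in replicate 2. The median log2 ratio of replicate 2 over replicate 1 was -0.31 for the 9 genes with at least 10 counts, so the sum does not describe each gene.

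Mir200c was the most abundant of the 10 genes in both libraries. It had 812 counts or 193 CPM in replicate 1 and 1115 counts or 293 CPM in replicate 2, a mean of 243 ± 70.6 CPM. By CPM it stood at rank 141 and rank 114 of the 2202 genes, of which 744 had any sense count over the libraries. It alone held 46.4% of the reads of the 10 genes in replicate 1 (44.1 to 48.8 by the Wilson method) and 47.9% in replicate 2 (45.9 to 49.9), and these intervals overlap.

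Mir141, its neighbour downstream, had 26 counts or 6.20 CPM in replicate 1 and 51 counts or 13.4 CPM in replicate 2, a mean of 9.81 ± 5.10 CPM. The ratio of Mir200c to Mir141 was 31.2 in replicate 1 (exact interval 21.2 to 48.1) and 21.9 in replicate 2 (16.5 to 29.5). On the log2 scale this is 4.71 ± 0.36. The gap in reads between these neighbours was thus many times the spread between the libraries. That spread does not measure a bias by sequence that both libraries share. Both genes were higher in replicate 2.

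At the locus on chromosome 4 the order of the genes was less settled. Mir200b had 275 counts or 65.5 CPM in replicate 1 and 75 counts or 19.7 CPM in replicate 2, a mean of 42.6 ± 32.4 CPM. Mir429 had 123 counts or 29.3 CPM and 89 counts or 23.4 CPM, a mean of 26.4 ± 4.17 CPM. Mir200b therefore led this locus in replicate 1 and Mir429 led it in replicate 2. Mir200a, the middle gene, had 20 counts or 4.77 CPM and 17 counts or 4.47 CPM, a mean of 4.62 ± 0.21 CPM, and was the lowest of the 3 in both libraries.

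Within this locus, the ratio of Mir200b to Mir429 was 2.24 in replicate 1 (exact interval 1.80 to 2.79) and 0.843 in replicate 2 (0.611 to 1.16). The ratio of Mir200b to Mir200a was 13.8 (8.73 to 22.9) and 4.41 (2.58 to 7.97). For both ratios the intervals of the libraries do not overlap. The ratio of Mir429 to Mir200a was 6.15 (3.81 to 10.4) in replicate 1 and 5.24 (3.09 to 9.39) in replicate 2, with overlapping intervals and a log2 value of 2.50 ± 0.16.

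**Figure D1:**
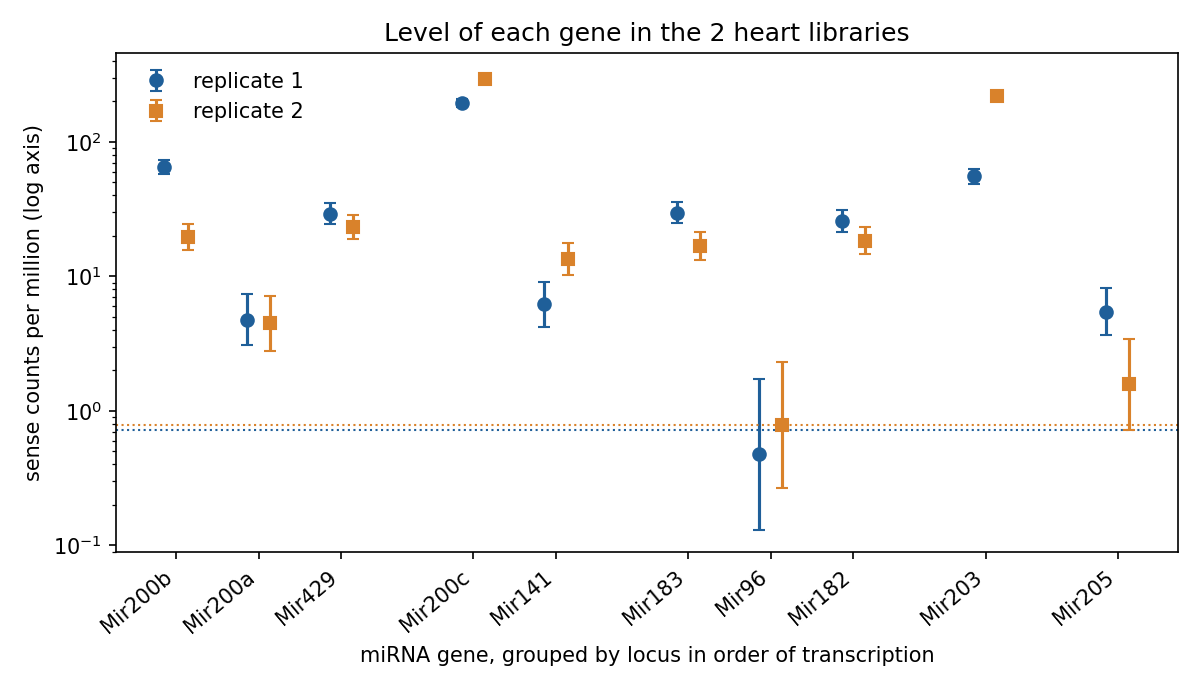
Level of each of the 10 genes in the libraries of replicate 1 (circles) and replicate 2 (squares), as CPM of sense counts on a log axis, with Wilson intervals of counting error. Dotted lines mark the level of 3 counts, 0.715 and 0.789 CPM. Mir200c is highest and Mir96 lowest in both libraries, and Mir200b and Mir203 show the widest gaps between libraries among genes above 10 CPM.

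Grouped by seed, the miR-200 family was carried by AAUACUG. Mir200b, Mir200c and Mir429 together had 1210 counts or 288 CPM in replicate 1 and 1279 counts or 336 CPM in replicate 2. Mir200a and Mir141, with AACACUG, had 46 counts or 11.0 CPM and 68 counts or 17.9 CPM. The 5 miR-200 genes summed to 299 and 354 CPM, a mean of 327 ± 38.9 CPM, although Mir200b and Mir200c differed between the libraries in opposite directions. The sums of their loci differed in opposite directions too. The locus on chromosome 4 had 99.6 and 47.6 CPM and that of Mir200c and Mir141 had 200 and 307 CPM in replicates 1 and 2.

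In the miR-183 cluster the outer genes were alike and the middle gene was near the detection limit. Mir183 had 125 counts or 29.8 CPM in replicate 1 and 64 counts or 16.8 CPM in replicate 2, a mean of 23.3 ± 9.16 CPM. Mir182 had 109 counts or 26.0 CPM and 70 counts or 18.4 CPM, a mean of 22.2 ± 5.35 CPM. The ratio of Mir183 to Mir182 was 1.15 (exact interval 0.880 to 1.50) and 0.914 (0.641 to 1.30), so both intervals include equal counts.

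Mir96, which lies between them, had only 2 and 3 counts, or 0.477 and 0.789 CPM. Mir183 exceeded it 62.5-fold in replicate 1 (exact interval 16.9 to 522) and 21.3-fold in replicate 2 (6.98 to 106). In both 3-gene loci the gene in the middle of the order of transcription thus had the fewest reads in each library. The cluster as a whole had 56.2 and 36.0 CPM.

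Of the solitary genes, Mir203 had the wider gap in CPM between the libraries. It had 234 counts or 55.8 CPM in replicate 1 and 839 counts or 221 CPM in replicate 2, a mean of 138 ± 117 CPM, and stood at ranks 202 and 136. The replicate 2 value lies far above that of replicate 1, and their intervals do not overlap. Its part of the reads of the 10 genes was 13.4% in replicate 1 (11.9 to 15.1 by the Wilson method) and 36.0% in replicate 2 (34.1 to 38.0). Mir205 had 23 counts or 5.48 CPM and 6 counts or 1.58 CPM, a mean of 3.53 ± 2.76 CPM, at ranks 314 and 385. The skin miRNAs Mir203 and Mir205 thus stood on opposite sides of the comparison, the first higher and the second lower in replicate 2.

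**Figure D2:**
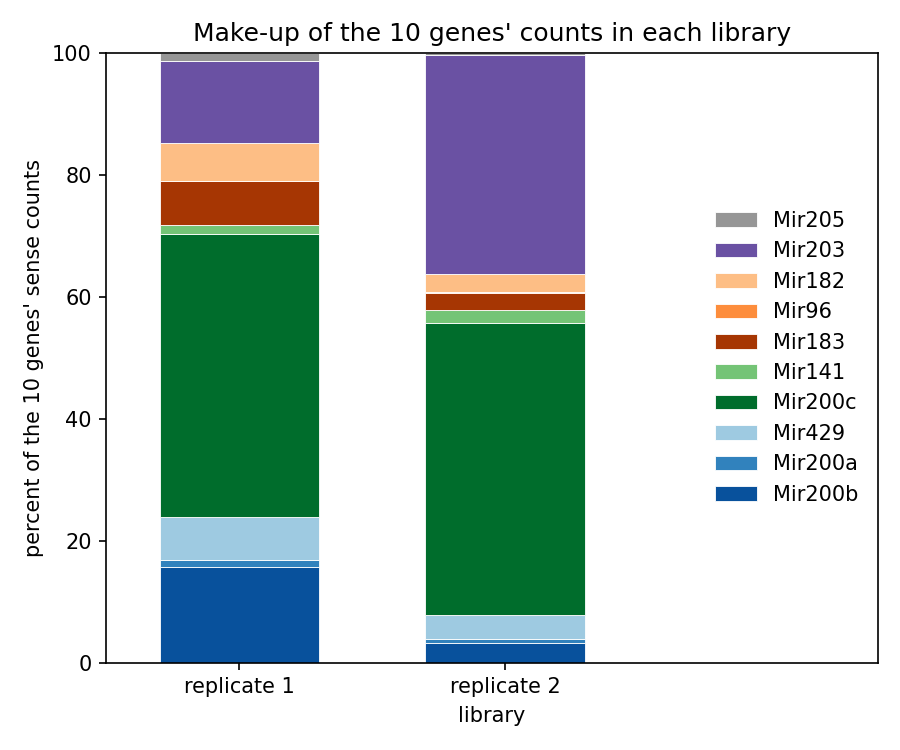
Make-up of the sense counts of the 10 genes in each library, as percent of their sum on an axis from 0 to 100, with 1 colour per gene. Mir200c takes 46.4% and 47.9%, while Mir203 takes 13.4% in replicate 1 and 36.0% in replicate 2 and Mir200b takes 15.7% and 3.22%.

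Ordered by mean CPM, the genes ran from Mir200c through Mir203, Mir200b, Mir429, Mir183, Mir182, Mir141, Mir200a and Mir205 to Mir96. Neighbours in this order were called apart where both libraries gave the same order and the means differed by more than the sum of the SDs. Of the 9 neighbouring pairs, only Mir182 over Mir141 met this. Over all 45 pairs of the 10 genes, 40 stood in the same order in both libraries and 28 were apart. Mir200c was apart from 8 of the other 9 genes, the exception being Mir203, whose ratio to Mir200c was 0.288 in replicate 1 (exact interval 0.248 to 0.334) and 0.752 in replicate 2 (0.687 to 0.824).

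**Figure D3:**
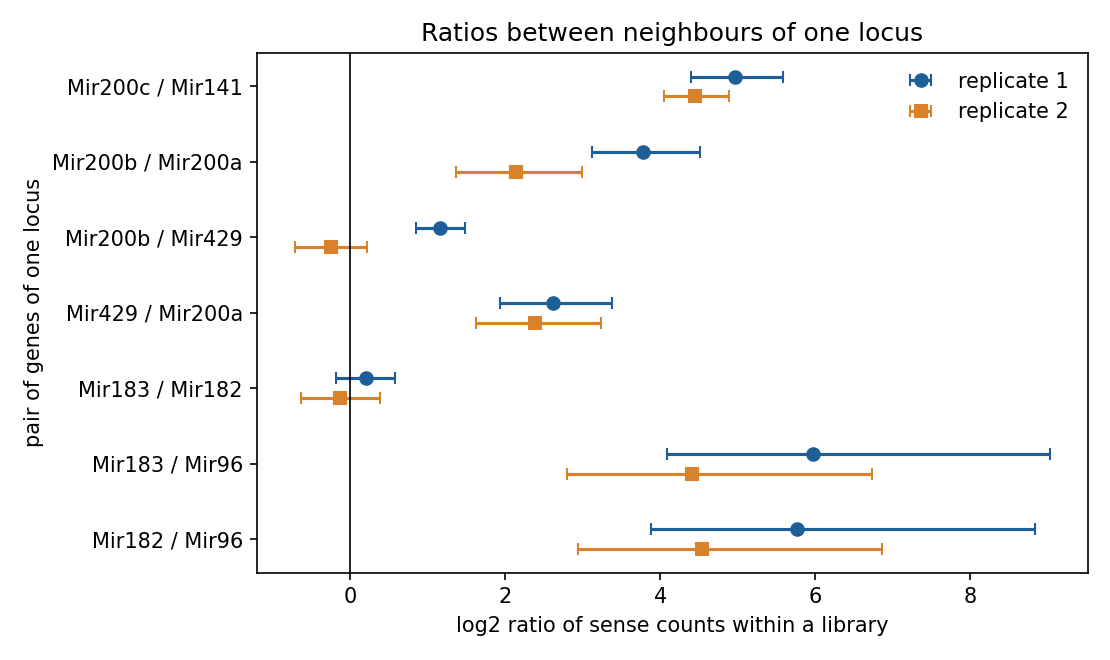
Ratios of sense counts between genes of one locus on a log2 axis, in replicate 1 (circles) and replicate 2 (squares), with exact intervals of counting error, where 0 means equal counts. Mir200c over Mir141 lies near 4.71 in the mean, Mir183 over Mir182 spans 0 in both libraries, and the intervals of Mir200b over Mir429 do not overlap.

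To see how far the libraries of one group differed in these genes, each gene's counts were compared between replicate 1 and replicate 2 by a two-sided exact test after Fisher, and p-values were adjusted by the Benjamini-Hochberg method over the 441 genes that had at least 10 counts summed over the libraries. This compares the libraries and not conditions, and takes counting error as the only error. Of the 10 genes 9 were tested, and Mir96 was too low. An adjusted p under 0.05 was reached by 7 of the 9, beside 56.9% of all tested genes. Higher in replicate 2 were 3 (20.4% of all tested genes) and lower were 4 (36.5%). With TMM scaling the split over all tested genes was 124 higher and 116 lower, and with DESeq2 size factors 136 and 104, in place of 90 and 161, because log2 CPM ratios shift up by 0.24 and 0.31. From counts without regard to strand it was 67 and 170. Over 2-fold apart on the log2(CPM + 1) scale were 4 of the 9, namely Mir200b, Mir203, Mir205 and Mir141, beside 18.8% of all tested genes. With 10 CPM added in place of 1 CPM, Mir200b and Mir203 alone were, 2 of the 9, beside 9.30% of all tested genes. The median log2 ratio of replicate 2 over replicate 1 was -0.31 for the 9 genes and -0.26 for all 441.

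The genes higher in replicate 2 were Mir203, Mir141 and Mir200c. Mir203 was 3.96-fold higher (exact interval 3.42 to 4.59), with an adjusted p of 3.2e-93 in Fisher's exact test. The pair at one locus went the same way, with Mir141 2.17-fold higher (1.33 to 3.62, adjusted p = 0.0027 in Fisher's exact test) and Mir200c 1.52-fold higher (1.38 to 1.66, adjusted p = 4.86e-19 in Fisher's exact test). The interval of Mir141 includes the fold of Mir200c.

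Lower in replicate 2 were Mir200b, Mir205, Mir183 and Mir182. Mir200b was 3.32-fold higher in replicate 1 (exact interval 2.56 to 4.35), with an adjusted p of 2.56e-23 in Fisher's exact test. Mir205 was 3.47-fold higher there (1.37 to 10.4, adjusted p = 0.00893 in Fisher's exact test), on few reads. Both outer genes of the miR-183 cluster went the same way, Mir183 by 1.77-fold (1.30 to 2.43, adjusted p = 0.00043 in Fisher's exact test) and Mir182 by 1.41-fold (1.04 to 1.93, adjusted p = 0.044 in Fisher's exact test). The call of Mir182 was lost with TMM scaling (adjusted p = 0.366 in Fisher's exact test) and with DESeq2 size factors (0.571).

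Mir429 and Mir200a, the neighbours of Mir200b, did not pass, with 1.25-fold (0.945 to 1.66, adjusted p = 0.172 in Fisher's exact test) and 1.07-fold (0.530 to 2.17, adjusted p = 0.91) toward replicate 1. The levels of both overlap between the libraries within counting error. A p that misses the threshold does not show equal levels. The log2 ratio of Mir200a was -0.08 by total counts and 0.13 with TMM scaling, so its sign was not fixed.

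**Figure D4:**
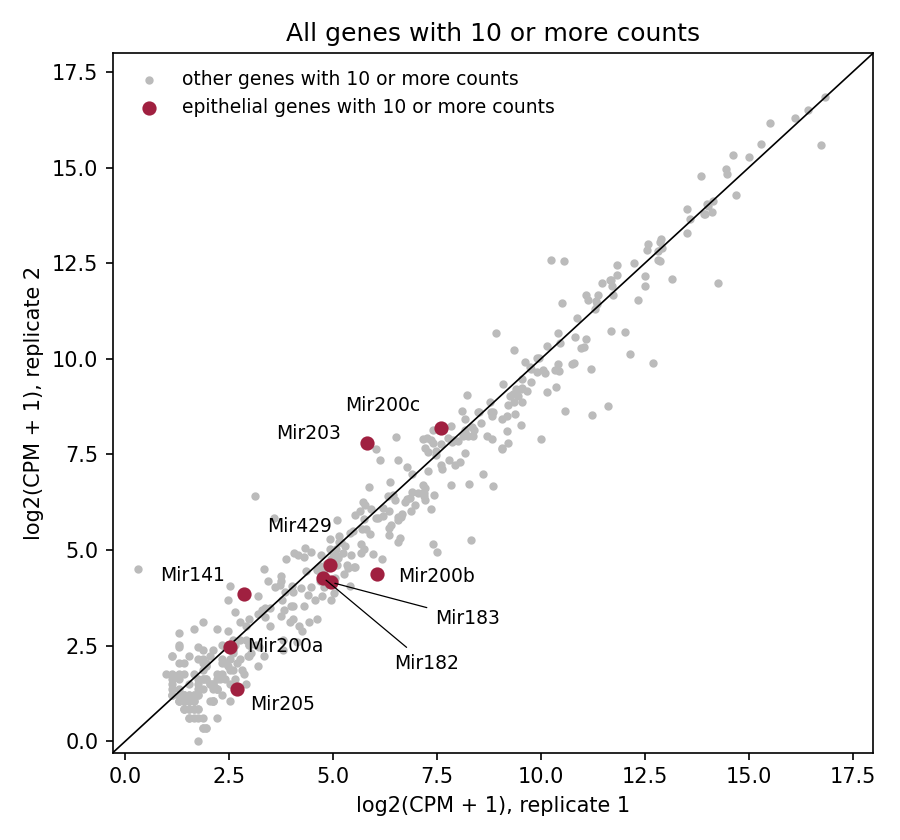
All 441 genes with 10 or more counts, as log2(CPM + 1) in replicate 1 (x axis) and replicate 2 (y axis), with the 9 tested genes of the 10 in red and a line of equal levels. Mir203 lies above the line and Mir200b and Mir205 below it, and 83 of the 441 genes lie more than 2-fold from it.

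A second test allowed for spread beyond counting error. Its spread was estimated with both libraries taken as 1 group, so the differences under test were themselves counted as spread. A lack of calls in it therefore does not show that the levels are alike. In edgeR's exact test, whose spread was estimated from the same 2 libraries (biological coefficient of variation 0.376), 0 of the 9 genes had an adjusted p under 0.05, and 2 of the 441 genes did. An unadjusted p under 0.05 was reached by 1 of the 9, Mir203 (p = 0.00677, adjusted p = 0.271 in edgeR's exact test), and by 25 of the 441. The next lowest was Mir200b (p = 0.0708 in edgeR's exact test). With 1 library on each side this test cannot tell animal from library, so the differences above are differences between these libraries.

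**Figure D5:**
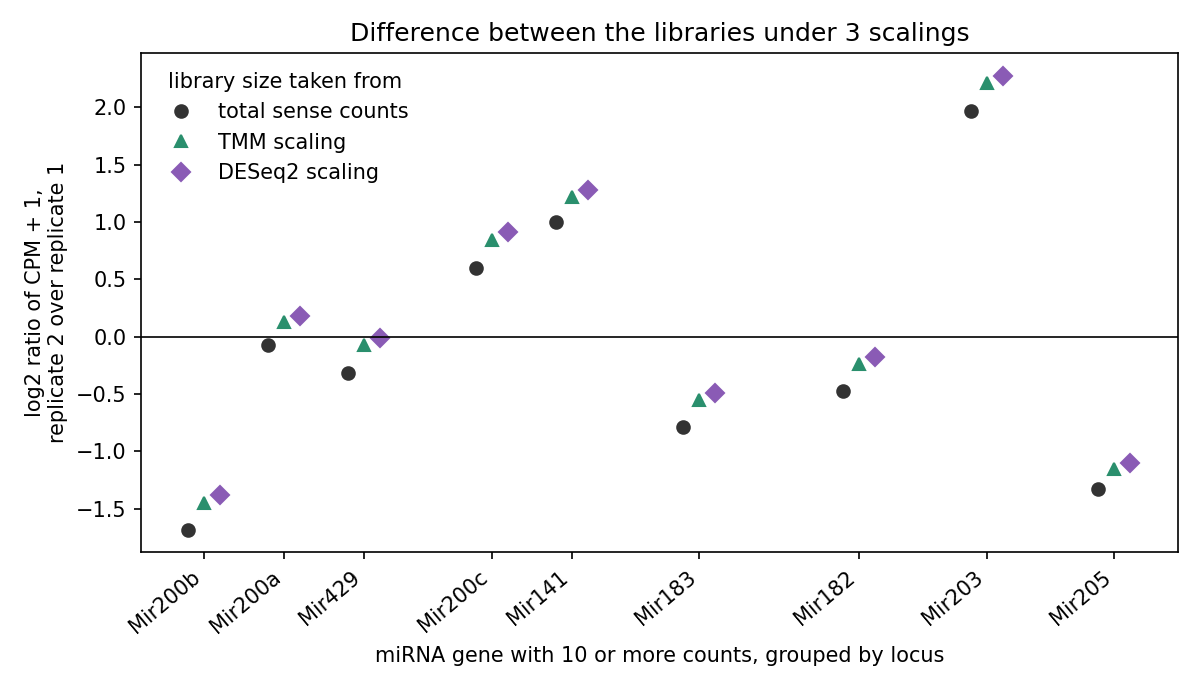
Log2 ratio of CPM + 1, replicate 2 over replicate 1, for the 9 tested genes with library sizes from total sense counts (circles), TMM (triangles) and DESeq2 (diamonds), where 0 means equal levels. TMM and DESeq2 move every ratio up, Mir200a crosses 0, and the other 8 keep their sign under all 3 scalings.

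Other genes moved between the libraries too, and marker lists of other cells are given beside the 10 genes for that reason. The 3 heart muscle genes summed to 13054 CPM in replicate 1 and 8858 CPM in replicate 2, and 3 of 3 were lower in replicate 2. The endothelial Mir126a had 109199 and 49330 CPM. The smooth muscle genes Mir143 and Mir145a summed to 48576 and 79468 CPM, both higher in replicate 2. White blood cell genes (Mir155, Mir150, Mir142 and Mir223) summed to 1478 and 1542 CPM, with 3 of 4 higher and 1 lower, and the red blood cell genes Mir451a, Mir486 and Mir144 to 493 and 400 CPM, with 2 of 3 lower and none higher. Mir126a, Mir142, Mir451a and Mir486 share 20-base windows with other annotated hairpins when both strands are compared. A hairpin on the opposite strand of the same locus would be met in this way, and sense counts keep the strands apart. Whether the counts of these 4 genes are affected was not tested. The part of these cells in the differences of the 10 genes was not tested.

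The miR-183 cluster is also a sensory and neuronal marker, so neuronal genes were read as well. All 3 Mir124a copies and Mir9-2 had 0 counts in both libraries, and the 8 genes of the list summed to 39.1 and 54.7 CPM. Mir204, also known from the eye, had 33.6 and 27.9 CPM. Of the 3 tested genes 1 passed, Mir9-3, with 1 count in replicate 1 and 82 counts in replicate 2. The Mir124a and Mir9 hairpins share windows with their copies, so their counts are uncertain.

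A further list of 11 epithelial miRNA genes was also mixed in direction. Of the 11, 9 were tested, of which Fisher's exact test called 3 higher and 5 lower in replicate 2, and Mir449b and Mir449c had 0 counts. Their sum was 661 CPM in replicate 1 and 544 CPM in replicate 2, and the median log2 ratio was -0.82, beside -0.26 for all tested genes. Higher in replicate 2 were Mir31, known from skin, with 143 and 239 CPM, Mir34c, known from multiciliated airway cells, with 64.8 and 199 CPM, and Mir375, known from pancreatic islets and secretory epithelium, with 4.53 and 11.8 CPM. Lower were the gut and kidney genes Mir215, with 319 and 37.1 CPM, and Mir192, with 16.4 and 5.00 CPM, both copies of Mir194, whose counts are uncertain because they share windows, and the multiciliated cell gene Mir449a with 39.8 and 22.1 CPM. Mir34b passed in neither direction with 3.57 and 2.37 CPM.

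By distance in the plane of both log2 levels, the tested gene nearest to Mir200c was Mir142 (184.9 and 286.7 CPM, distance 0.073 log2 units), the one nearest to Mir203 was Mir34c (distance 0.26) and the one nearest to Mir200b was Mir877 (70.8 and 26.3 CPM, distance 0.41). This is a likeness over 2 libraries only.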

How the data were processed

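The authors deposited raw read counts for each miRNA gene. The accompanying notes name mm10 and GENCODE M21. Which aligner was run is not given in the sources used here. Loss of reads in the alignment of CAST alleles that differ from mm10 was not tested. Each table holds counts without regard to strand, on the gene's strand (sense) and on the opposite strand, a reading of the columns taken from their values. Sense counts were used. Lines that name no gene were left out of library sizes. Multi-mapped reads among them were 38.1% and 42.3% of all reads accounted for in replicates 1 and 2, and sense counts 43.8% and 40.9%.

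All 2202 gene IDs matched GENCODE M21. CPM, log2(CPM + 1), Fisher's exact tests, Wilson and exact (Clopper-Pearson) intervals were computed with scipy 1.17.1. edgeR 4.0.16 gave TMM (trimmed mean of M-values) sizes and the exact test, whose common dispersion came from the 344 genes that reached 10 counts in both libraries. DESeq2 1.42.0 gave size factors. With a single library on each side no quasi-likelihood fit was possible. Alternatives were both scalings, other count minimums, 0.5 or 10 CPM added in place of 1 CPM, counts without regard to strand, another denominator and leaving out each library. All 10 genes are named. By the rule set, the other genes named are those of the marker lists. For each of the 3 most abundant of the 10, the rule also names the gene nearest in level. The whole epithelial list, the called neuronal gene, Mir1a-1 and Mir133a-2 were named beyond the rule after their values were seen. The rule for the 10 genes used no measured value, but genes and lists were chosen with earlier results of these data known.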

Additional observations from a re-analysis of the deposited data

Results flagged for a closer look

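Reads on the strand opposite to Mir203 came to 9 counts in replicate 1 and 10 counts in replicate 2, above the 3 counts that a count of 0 allows. Of the reads on both strands they were 3.70% (1.96 to 6.89 by the Wilson method) and 1.18% (0.641 to 2.15), respectively. None of the 10 genes overlaps another miRNA annotated in GENCODE M21 on the other strand, and 5 of them had 0 opposite-strand counts in both libraries. Of the 411 tested genes without such an overlap, 4 had more than 3 opposite-strand counts in each library. RefSeq annotates the miRNA gene Gm51289 on the minus strand there, and it was not analysed here as a gene of its own. Its mature sequence opposite to miR-203-3p (chromosome 12, 112130927 to 112130946, GRCm38.p6) is printed with bases 2 to 8 in capitals.
mmu-miR-203b-5p: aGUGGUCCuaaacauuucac
Whether the opposite-strand reads match this sequence was not tested, because the tables give counts only.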

How the results depend on the processing

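When strand was disregarded, the share of the 10 genes was 0.0670% in place of 0.0515%, the log2 ratio of Mir429 to Mir200a was 2.32 in place of 2.50, and 2 neighbouring pairs were apart in place of 1. With all reads that the tables account for as the denominator the share was 0.0216%. The alternative's own construction, another set of reads in the numerator or the total, sets these values. Of the 9 tested genes 7 were called by total counts, 6 with TMM scaling, 6 with DESeq2 scaling and 6 with no count minimum, each time without Mir182, and 6 with at least 10 counts in each library, where Mir205 was no longer tested. Without regard to strand 7 were called. edgeR's exact test called 0. The log2 ratio of Mir200a turned from -0.08 to 0.13 with TMM and to 0.18 with DESeq2. Of 27 library ratios of the 9 genes recomputed with both scalings and without regard to strand, 23 kept their direction and side of the threshold. Another value added to CPM cannot change either, but with 10 CPM the log2 ratio of Mir141 was 0.53 and that of Mir205 was -0.42. Without regard to strand 3 of the 9 were over 2-fold apart, Mir141 no longer among them. Leaving out either library moved the share and the ratios within loci by less than 1 SD, which with 2 libraries is fixed by construction. No paired analysis was possible because the samples form a single group. Depth limits Mir96, Mir205 and Mir200a most.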
